A study of Mus musculus with 4 samples.

Results

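The cells described here are mesenchymal cells of mouse embryoid bodies that carry RNA of Upk3b, the gene of uroplakin 3B, a membrane protein of mesothelium. They were chosen by counts of unique molecular identifiers (UMIs, 1 per captured RNA molecule). A cell needed at least 500 detected genes, at most 10% of UMIs from mt- genes, and at least 3 UMIs in at least 3 of the 4 genes Col1a1, Col1a2, Col3a1 and Postn (the collagen gate). It also needed at least 1 UMI of Upk3b. Of 8876 cells that passed the first 2 limits, 801 passed the collagen gate and 264 of those carried Upk3b. These 264 cells are the members, and the other 537 collagen-gate cells, without a Upk3b UMI, are the cells they are compared with.

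Mesothelium is the single layer of flattened cells that covers the organs and lines the walls of the body cavities. It arises from mesoderm but keeps epithelial traits, such as keratins and an apical surface, and in embryos it can release cells that become fibroblasts and smooth muscle. Uroplakins, mesothelin (Msln), the membrane protein Lrrn4 and the transcription factors Wt1 and Bnc1 are used to mark it.

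Embryoid bodies are clumps in which embryonic stem cells differentiate. They were measured at day 9 in 2 libraries from stem cells pulsed with DUX and 2 from control stem cells. DUX is a transcription factor of the cleaving mouse embryo. The submitters call the 2 libraries of a group biological replicates and say no more of how they were grown, so p-values measure the spread between these libraries. The strain, the number of clones, the dose and the length of the pulse are not given in the sources used here, and Dux itself was not analysed here. DUX-pulsed libraries 1 and 2 held 103 and 99 members, and control libraries 1 and 2 held 30 and 32. Summed over members, these gave 3729978 and 4031397 UMIs in DUX-pulsed libraries, against 938799 and 1139916 UMIs in control libraries, so the control values are the less precise ones. The median member had 33358 and 38618 UMIs in DUX-pulsed libraries, against 27682.5 and 33479 in control libraries. No cell barcode was shared between the members of 2 libraries, and at most 2 were shared between the kept cells of any pair of libraries.

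Upk3b chose the cells, so its counts are a description. The median member carried 5 and 10 Upk3b UMIs in DUX-pulsed libraries 1 and 2, against 10 and 2 in control libraries 1 and 2. Control library 2 had the lowest median, and the highest cell, with 101 UMIs, was in DUX-pulsed library 2. At the edge of the rule stood 44 members with a single Upk3b UMI, while 121 members had 8 or more. Just outside it were 30 kept cells with Upk3b that had only 2 of the 4 collagen-gate genes at 3 UMIs. Of the members, 204 passed with all 4 of those genes and 60 with 3. In control library 1 only 8 of 30 members passed with all 4, and in control library 2 only 16 of 32, against 90 of 103 and 90 of 99 in DUX-pulsed libraries 1 and 2.

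Free RNA in droplets can give a cell a Upk3b UMI that it did not make. Among cells of a cardiomyocyte gate that lay outside the collagen gate, and should lack the gene, 4 of 864 carried Upk3b (0.463%), each with 1 UMI, at a median of 24242.5 UMIs per cell. The other 5 of the 869 cells in that gate were collagen-gate cells, 1 of them a member. In the collagen gate the share was 33.0% (264 of 801) at a median of 30511 UMIs. With every cell thinned to 5000 UMIs the shares were 21.8% in the collagen gate and 0.119% in the cardiomyocyte gate. In an endothelium gate 0 of 139 cells had a Upk3b UMI, which allows a share of up to 2.16%, taken as 3 counts of the total (the exact 95% upper limit was 2.62%). Outside the collagen gate 224 of 8075 kept cells carried Upk3b (2.77%), among them 17 with 8 or more UMIs, so the gene was not confined to the members. There the share was 3.44% in an endoderm gate, 3.34% in an epithelial gate and 3.54% in a parietal endoderm gate. The highest cells of these gates had 20, 20 and 5 Upk3b UMIs. Erythroid and macrophage gates had shares of 0.578% and 1.18%. No doublet caller was run. Of the members, 65 of 264 also passed at least 1 of 7 gates for other cell types, 63 of them the parietal endoderm gate. That gate was passed by 23.9% of members and 10.6% of cells without Upk3b, and any of the 7 gates by 24.6% and 12.8%.

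**Figure D1:**
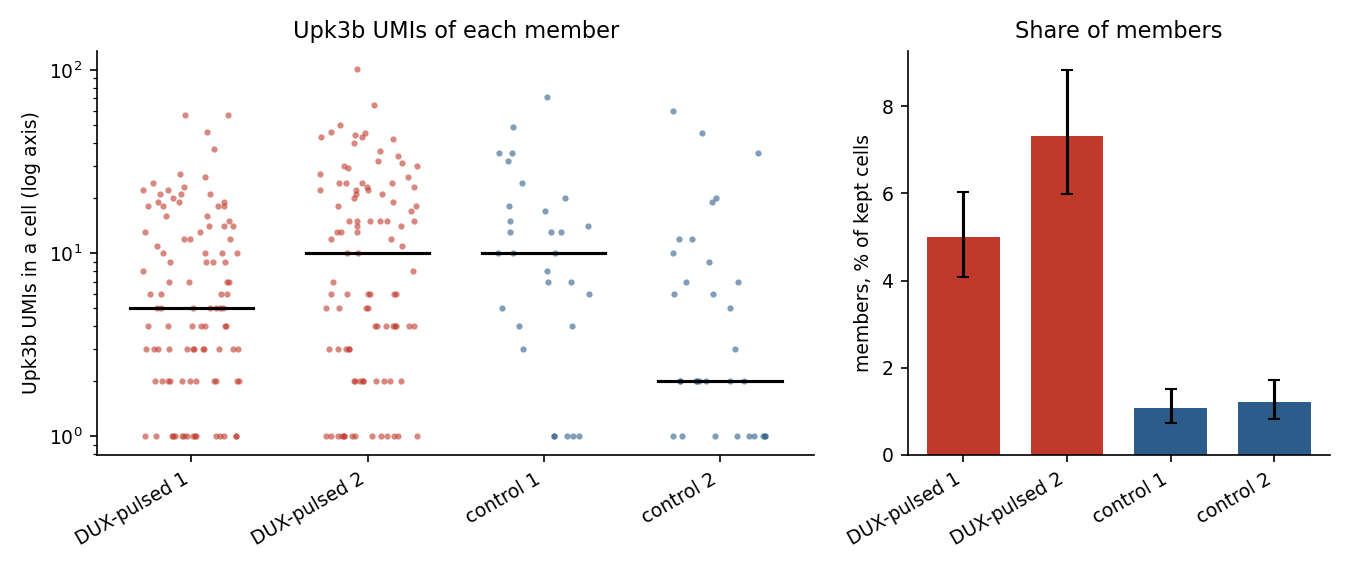
Left, Upk3b UMIs of each member (points, log axis) by library, with the median as a line. Right, members as a percentage of kept cells with exact 95% binomial intervals, which cover counting error only. Members carried from 1 to 101 Upk3b UMIs over the 4 libraries, and made up 4.99% and 7.32% of DUX-pulsed cells, against 1.06% and 1.21% of control cells.

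The series set embryoid bodies of DUX-pulsed stem cells against those of control stem cells. Members made up 4.99% and 7.32% of kept cells in DUX-pulsed libraries (6.15% ± 1.64, SD, n = 2), against 1.06% and 1.21% in control libraries (1.14% ± 0.107, SD, n = 2). Both DUX-pulsed libraries lay above both control libraries. The count of members, fitted beside those of 10 other classes of kept cells with edgeR's quasi-likelihood test, was higher in DUX-pulsed libraries, with a log2 fold change of 2.43 and an SE of 0.48 (adjusted p = 0.00495). The call was lost when any 1 library was left out (adjusted p from 0.0743 to 0.106, log2 fold changes from 2.13 to 2.68). It was also lost when the class counts were scaled by TMM (log2 fold change 0.96, adjusted p = 0.188). An exact permutation test of the shares gave p = 0.333, the smallest that 2 libraries against 2 allow. Cells of the collagen gate without Upk3b rose as well, by 2.22 on the log2 scale (adjusted p = 0.00767). The cardiomyocyte, macrophage, endothelium and erythroid gate classes also passed, with log2 fold changes of 2.29, 5.65, 2.02 and 1.71. Cells in more than 1 other gate were fewer (-1.46), and the endoderm, epithelial, parietal endoderm and remaining classes did not pass.

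The fraction of collagen-gate cells that carried Upk3b was 32.2% and 35.5% in DUX-pulsed libraries, against 24.6% and 40% in control libraries. The control libraries lay on either side of the DUX-pulsed ones. The difference of means was 1.54 percentage points (two-sided exact permutation p = 1, smallest possible 0.333). With 122 and 80 collagen-gate cells, the 95% binomial intervals of the control libraries ran from 17.2% to 33.2% and from 29.2% to 51.6%, which cover counting error only. Thinned to 5000 UMIs per cell, the fractions were 21.5% and 23.1% in DUX-pulsed libraries, against 19% and 22.8% in control libraries.

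The next comparison asked what else members express beyond the collagen-gate cells without Upk3b. UMIs were summed over the cells of each class in each library and fitted with the library as a block, and levels are CPM, counts scaled to a common library total, over TMM-scaled totals. Of 11628 genes tested, 1116 passed an adjusted p of 0.05 (9.6%). These were 653 higher in members (5.62%) and 463 lower (3.98%). Members were higher in all 4 libraries for 14.6% of genes tested and lower in all 4 for 14.2%. Members had larger median depths than the cells without Upk3b in DUX-pulsed libraries and in control library 2. After thinning to 5000 UMIs there were 546 calls among 7880 genes tested, and 416 of them were among the 1116. The count was 421 without DUX-pulsed library 1, 388 without DUX-pulsed library 2, 634 without control library 1 and 1887 without control library 2.

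Members had more RNA of mesothelial membrane proteins. Upk1b, the gene of a tetraspanin that pairs with uroplakin 3 proteins in urothelium, stood at 165, 174, 151 and 118 CPM in members of DUX-pulsed libraries 1 and 2 and control libraries 1 and 2, against 5.29, 5.56, 2.49 and 5.49 CPM in cells without Upk3b. Every library had a large gap, and the log2 fold change was 5.03 (SE 0.17, edgeR adjusted p = 3.60e-07). A Upk1b UMI was found in 198 of 264 members and 47 of 537 cells without Upk3b, and thinned to 5000 UMIs the shares were 40.1% and 2.44%.

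Lrrn4, a leucine-rich repeat membrane protein of mesothelium, stood at 46.6 and 29.0 CPM in members of DUX-pulsed libraries and 132 and 155 CPM in members of control libraries. Cells without Upk3b had 2.72 and 1.73 CPM in DUX-pulsed libraries and 13.2 and 25.6 CPM in control libraries. Members were higher in each of the 4 libraries, and both classes were higher in control libraries (members against cells without Upk3b, log2 fold change 3.38, SE 0.23, adjusted p = 4.23e-05). The basonuclin gene Bnc1, a zinc finger protein of mesothelium and squamous epithelia, was at 67.6, 80.3, 85.8 and 75.0 CPM in members, against 11.7, 21.5, 16.7 and 20.1 CPM in cells without Upk3b, in the same order of libraries. The members of the 4 libraries lay close together (log2 fold change 2.17, SE 0.15, adjusted p = 4.40e-05).

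Upk3b, Lrrn4 and Bnc1 are shown with the DNA before their start sites, since Upk3b chose the cells and the other 2 rose with it. The sequences run 5′ to 3′ from base 250 to base 31 before the RefSeq start (build GRCm38.p6), at chr5:136038246-136038465 (+) for Upk3b, chr2:132880893-132881112 (−) for Lrrn4 and chr7:81992330-81992549 (−) for Bnc1. Capitals mark exact matches, on either strand, to GATAA, the core bound by GATA factors, to CATTCC, the core bound by TEAD factors, or to GCGTGGG, a core bound by WT1. The motifs do not overlap in these windows.
Upk3b: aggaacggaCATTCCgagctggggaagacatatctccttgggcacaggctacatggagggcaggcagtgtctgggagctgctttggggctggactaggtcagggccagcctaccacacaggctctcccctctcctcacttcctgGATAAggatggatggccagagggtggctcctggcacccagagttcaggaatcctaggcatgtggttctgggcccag
Lrrn4: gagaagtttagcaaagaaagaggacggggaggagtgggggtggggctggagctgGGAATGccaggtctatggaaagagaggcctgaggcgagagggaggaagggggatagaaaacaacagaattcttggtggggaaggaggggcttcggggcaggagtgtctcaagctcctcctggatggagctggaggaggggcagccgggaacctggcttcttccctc
Bnc1: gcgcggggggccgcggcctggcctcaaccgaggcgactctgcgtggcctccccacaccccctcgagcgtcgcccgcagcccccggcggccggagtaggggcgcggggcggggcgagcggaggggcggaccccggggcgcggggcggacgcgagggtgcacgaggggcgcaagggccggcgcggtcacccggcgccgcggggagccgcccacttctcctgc
Upk3b had 1 CATTCC, from base 241 to base 236 before its start, and 1 GATAA, from base 106 to base 102. Lrrn4 had 1 CATTCC on its other strand, from base 196 to base 191. Bnc1 had none of the 3 motifs. Among all 32851 windows of this length in the table, 11.4% held CATTCC, 20.6% held GATAA and 3.75% held GCGTGGG, so such matches are common and only describe these windows.

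Further genes of mesothelium and apical surfaces were higher in members. The keratin gene Krt7 had 46.3, 42.9, 21.4 and 31.3 CPM in members, against 1.28, 2.30, 2.14 and 0.61 CPM in cells without Upk3b (log2 fold change 4.47, adjusted p = 2.39e-05). Podxl, the gene of podocalyxin, a sialomucin of apical surfaces, had 364, 388, 291 and 184 CPM in members, against 85.9, 74.4, 63.8 and 32.3 CPM in cells without Upk3b (2.27, adjusted p = 3.66e-06). Itga3, which encodes a laminin-binding integrin chain, had 61.4, 84.0, 92.9 and 62.6 CPM in members, against 8.33, 11.1, 14.6 and 9.15 CPM in cells without Upk3b (2.82, adjusted p = 4.09e-06). For these 3 genes members were higher in all 4 libraries, as they were for 14.6% of all genes tested. Krt8, Krt18, Krt19 and the WNT agonist gene Rspo1 also rose, by log2 fold changes of 1.2, 1.0, 1.34 and 1.74. The call of Krt19 was lost without control library 1 (adjusted p = 0.055).

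Of 22 genes on a list of mesothelium and epicardium (Upk3b not among them), 14 had enough counts to be tested, 11 of which were higher in members and 2 lower. Their median log2 fold change was 1.31, against -0.01 over all genes tested, and 8 to 11 were higher when any 1 library was left out. Calls made up 5.62% (higher) and 3.98% (lower) of all genes tested. The label of mesothelium was not met by all of its markers. Msln reached 0.6, 0, 1 and 0 CPM in members and 0 CPM in cells without Upk3b, and 3 of 264 members had a UMI of it. Muc16 had a UMI in 7 members. Wt1 stood at 33.0, 28.7, 34.7 and 27.2 CPM in members, against 14.4, 33.0, 9.62 and 6.71 CPM in cells without Upk3b, and did not pass (log2 fold change 0.94, adjusted p = 0.0911).

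The 2 list genes that were lower in members were Aldh1a2 and Tcf21. Tbx18, a transcription factor of the same list of mesothelium and epicardium, was among the 11 that were higher. Aldh1a2, the main retinoic acid synthesizing enzyme of the embryo, stood at 0.59, 3.16, 0 and 0 CPM in members, against 12.7, 9.98, 8.91 and 9.76 CPM in cells without Upk3b (log2 fold change -2.99, SE 0.55, adjusted p = 0.00762). Tcf21, a transcription factor of fibroblast precursors, stood at 18.3, 26.1, 7.15 and 32.1 CPM in members, against 41.8, 74.4, 21.7 and 43.9 CPM in cells without Upk3b (-1.18, adjusted p = 0.00444, and 0.05 without DUX-pulsed library 2). On a list of retinoic acid synthesis and response, 0 of 10 tested genes were higher and 4 lower, among them Aldh1a2, Rdh10 and Rarb. Among all genes tested, 5.62% were higher in members and 3.98% lower. Rarb was lost without DUX-pulsed library 2 (adjusted p = 0.075).

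**Figure D2:**
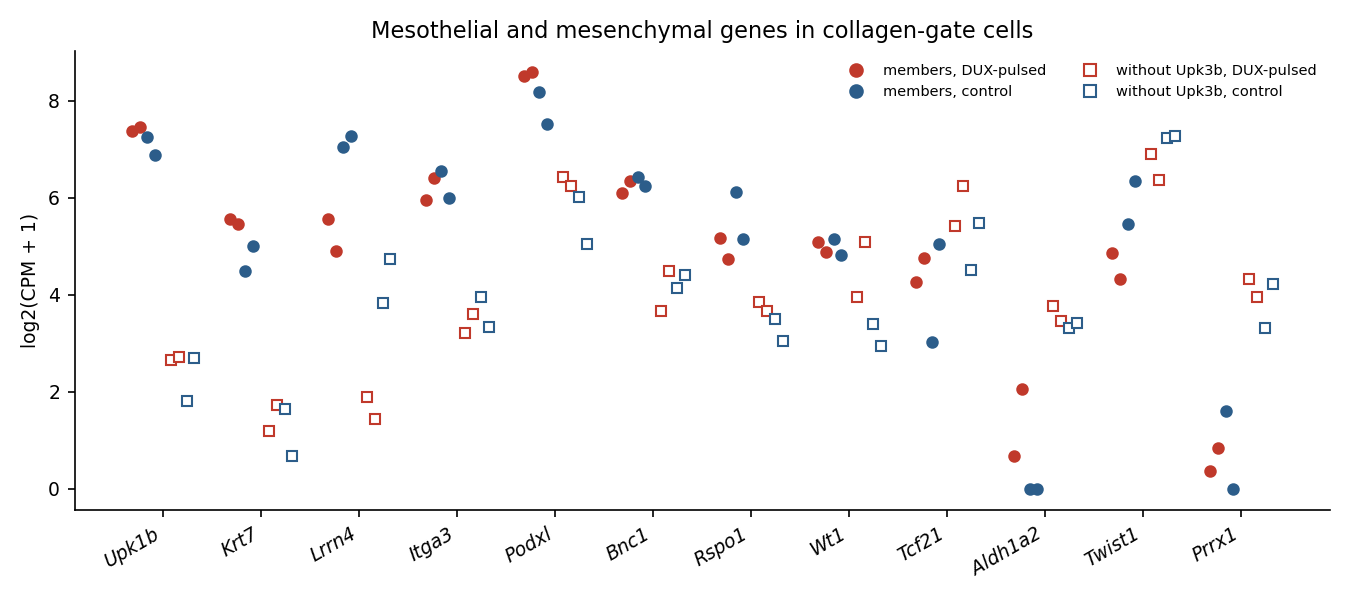
Levels, as log2(CPM + 1), of 12 genes in members (filled circles) and in collagen-gate cells without Upk3b (open squares) of each library. Upk1b, Krt7, Lrrn4, Itga3, Podxl, Bnc1 and Rspo1 were higher in members of all 4 libraries, Wt1 overlapped, and Tcf21, Aldh1a2, Twist1 and Prrx1 were lower in members.

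Of 27 transcription factors of lateral plate and extraembryonic mesoderm, all tested, 10 were lower in members, 3 were higher and 14 did not pass (median log2 fold change -0.57). The calls over all genes tested were 3.98% lower and 5.62% higher. Prrx1, a homeodomain factor of limb and body wall mesenchyme, had 0.295, 0.79, 2.04 and 0 CPM in members, against 19.1, 14.6, 8.91 and 17.7 CPM in cells without Upk3b (log2 fold change -4.52, SE 0.49, adjusted p = 0.000607). Twist1, a factor that drives mesenchymal character, had 28, 19.2, 42.9 and 80.8 CPM in members, against 119, 81.5, 150 and 155 CPM in cells without Upk3b (-1.73, adjusted p = 0.00053). For both genes members were lower in all 4 libraries, as they were for 14.2% of all genes tested. Osr1, Tbx4, Tbx5, Isl1, Gata5, Meis2, Snai1 and Zeb2 were the other falls. Hand1, which is strong in extraembryonic mesoderm and heart, was among the 3 rises, at 397, 408, 256 and 249.7 CPM in members, against 273, 283, 245 and 162 CPM in cells without Upk3b (0.44, adjusted p = 0.0261). Without DUX-pulsed library 1 or 2, 0 factors were higher and 5 or 4 were lower, and without control library 2 it was 4 and 17.

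Other genes lower in members included Vcan and Rgs5. Vcan, the gene of the large proteoglycan versican, had 167, 219.5, 66.4 and 117 CPM in members, against 657, 840.2, 247 and 235 CPM in cells without Upk3b (log2 fold change -1.73, SE 0.15, adjusted p = 0.000186). It was higher in DUX-pulsed libraries in both classes, and it lies on chromosome 13, whose genes were shifted as a whole between the groups of libraries (given with that comparison). Rgs5, a G-protein regulator typical of pericytes, had 8.26, 19.2, 23.5 and 47.8 CPM in members, against 80.6, 110.1, 64.1 and 72.6 CPM in cells without Upk3b (-2.02, adjusted p = 0.005). The other large falls were Pcsk1n, Vcam1, Fat4, Arhgap31, Igfbp7, the WNT inhibitor gene Dkk1, the netrin receptor gene Unc5c, Tle4 and Mdfi. Vcam1 was lost without DUX-pulsed library 1 (adjusted p = 0.062) or 2 (0.15), and Rgs5 without DUX-pulsed library 2 (0.05). Pdgfra, a receptor of fibroblasts, stood at 15.3, 32.4, 38.8 and 61.0 CPM in members, against 55.3, 83.3, 57.4 and 80.5 CPM in cells without Upk3b (-1.09, adjusted p = 0.011, and 0.098 without DUX-pulsed library 2). With Pdgfrb, Fgfr1, Itga4, Cd44 and Ednra it made 6 falls among 19 tested mesenchymal receptors, beside 1 rise, Tgfbr3. By comparison, 3.98% of all genes tested were lower in members and 5.62% higher. There were 2 receptor falls without DUX-pulsed library 1, 0 without DUX-pulsed library 2, 4 without control library 1 and 8 without control library 2.

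Of 24 tested genes of interstitial matrix, 10 were higher and 4 lower, and of 16 basement membrane genes 8 were higher and 2 lower. The shares over all genes tested were 5.62% higher and 3.98% lower. Of 8 tested parietal endoderm markers, 2 were higher (Sparc and Lamc1) and 0 lower, with a median log2 fold change of 0.33. Both rises are also counted in the 2 lists above. The parietal endoderm markers share 5 laminin and collagen IV genes with the basement membrane list. Over 10 such markers members summed to 3601, 4636, 2407 and 2577 CPM, against 2482, 2819, 1928 and 2214 CPM in cells without Upk3b, none of the 10 was at 0 in members, and their part in these counts was not tested. The interstitial matrix rises were 5 without DUX-pulsed library 2 and 7 without DUX-pulsed library 1 or control library 1. Lum, the gene of the small proteoglycan lumican, had 388, 667, 196 and 48.6 CPM in members, against 287, 318, 43.1 and 39.7 CPM in cells without Upk3b (log2 fold change 1.0, adjusted p = 0.0259, and 0.14 without DUX-pulsed library 2). Dcn, the gene of decorin, had 488, 726, 249 and 86.5 CPM in members, against 150.4, 269, 58.4 and 59.8 CPM in cells without Upk3b (1.49, adjusted p = 0.00137). Members were higher in each library for both, with the smallest gap in control library 2. Nid2, the gene of the laminin linker nidogen 2, had 172, 290.3, 128 and 129 CPM in members, against 65.7, 113, 48.8 and 61.0 CPM in cells without Upk3b (1.32, adjusted p = 7.14e-05). Lama5, the laminin chain of mature epithelial basement membranes, had 46.6, 76.1, 21.4 and 41.2 CPM in members, against 12.7, 22.1, 14.3 and 11.6 CPM in cells without Upk3b (1.62, adjusted p = 0.00137).

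Hsd11b2, Plagl1 and Nnat, given with Upk3b and Lum as marks of these cells, separated the classes less. Hsd11b2, whose enzyme inactivates glucocorticoids, stood at 579.9, 762, 603 and 542 CPM in members, against 351, 479, 451 and 375 CPM in cells without Upk3b (log2 fold change 0.59, SE 0.08, adjusted p = 0.00219). The imprinted zinc finger gene Plagl1 had 1679, 2235, 1524 and 1493 CPM in members, against 1362, 1877, 1023 and 1131 CPM in cells without Upk3b (0.38, adjusted p = 0.0085, and 0.064 without control library 1). The imprinted proteolipid gene Nnat had 1356, 1732, 2033 and 1808 CPM in members, against 1419, 1714, 1962 and 1218 CPM in cells without Upk3b, and did not pass (0.14, adjusted p = 0.44). All 3 genes were thus abundant throughout the collagen gate.

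Among secreted and metabolic genes, Gas6, the ligand of the TAM receptors, and Svep1, the gene of a matrix protein that binds the angiopoietin system, were among the largest rises (log2 fold changes 2.04 and 2.52). Tek, which encodes the angiopoietin receptor TIE2, had 55.2, 59.0, 132 and 131 CPM in members, against 12.0, 14.4, 39.2 and 51.3 CPM in cells without Upk3b (1.83, adjusted p = 0.000109). Over the 13 endothelial markers the summed level ranged from 188 to 271 CPM in members and from 159 to 198 CPM in cells without Upk3b. Of the 6 endothelial markers tested, 2 were higher in members (Tek and Egfl7) and 2 lower (Kdr and Plvap). No collagen-gate cell passed the endothelium gate. Slc2a1, the gene of the glucose transporter GLUT1, had 1355, 1348, 815 and 832 CPM in members, against 434, 686, 391 and 481 CPM in cells without Upk3b (1.12, adjusted p = 0.000656), and was 1 of 6 rises among 20 genes of glycolysis and hypoxia, with 0 falls. Over all genes tested 5.62% were higher in members and 3.98% lower. Of 22 cell cycle genes 1 was higher (Birc5, adjusted p = 0.0161, and 0.068 and 0.11 without DUX-pulsed library 1 and 2) and 0 were lower, and Mki67 had 204, 176, 175 and 166 CPM in members, against 241, 146, 147 and 103 CPM in cells without Upk3b (0.22, adjusted p = 0.382).

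Members varied with the amount of Upk3b they carried. In cells with 8 or more Upk3b UMIs, Upk1b averaged 234 ± 16.5 CPM (SD, n = 4 libraries), in cells with 3 to 7 UMIs 90.0 ± 46.1, in cells with 1 to 2 UMIs 28.4 ± 8.4, and in cells with none 4.7 ± 1.5. The mean of Upk1b at 1 to 2 UMIs thus lay between those of cells with none and cells with many. UMIs were summed over the cells of a bin, so these means do not show the levels of single cells. Krt7, by contrast, averaged 54.0 ± 17.5 CPM at 8 or more UMIs and only 8.7 ± 9.1 CPM at 3 to 7. Twist1 ran the other way, with 25.3 ± 21.7 CPM at 8 or more UMIs and 128.6 ± 40 CPM at none, and Rgs5 fell to 3.3 ± 2.7 CPM, against 82.1 ± 17.6 CPM in cells with none. Hsd11b2 changed little among members, at 636 ± 85.6 CPM with 8 or more UMIs and 595 ± 102 CPM with 1 to 2. Control libraries held 5 to 18 cells in each bin above 0, so these means are a description and no test was made. A cell of greater depth has more Upk3b UMIs at the same level, which these bins do not remove.

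**Figure D3:**
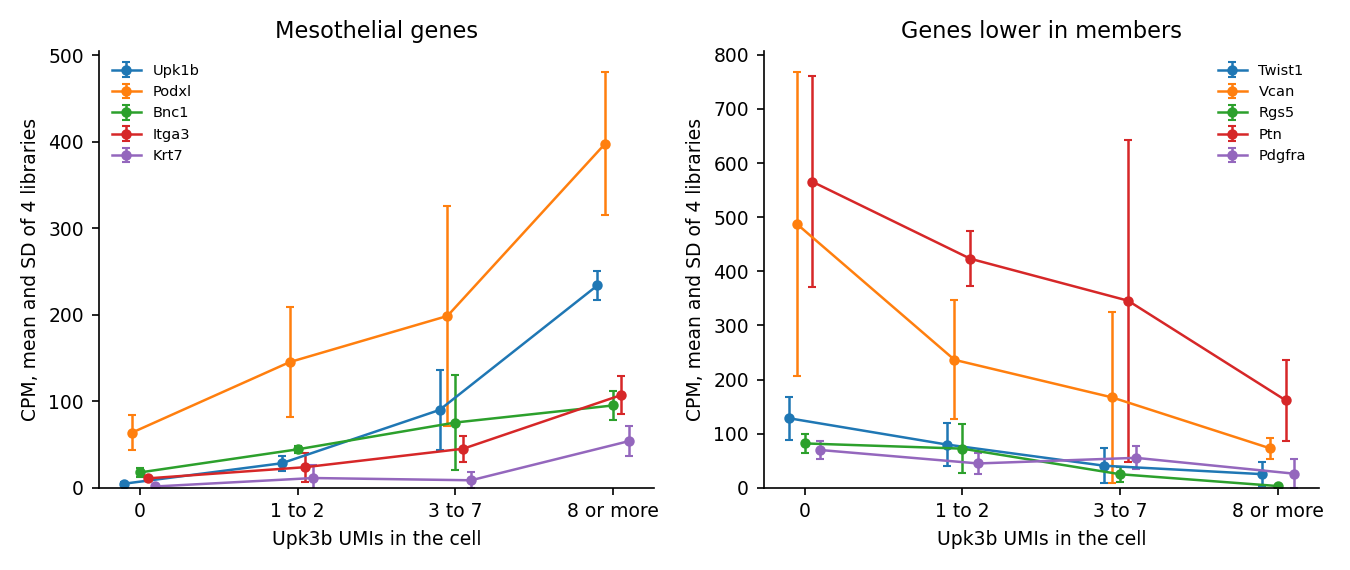
Mean CPM (points) and SD over 4 libraries (bars) in collagen-gate cells by their number of Upk3b UMIs. Left, Upk1b, Podxl, Bnc1 and Itga3 were highest in cells with 8 or more Upk3b UMIs, as was Krt7. Right, Twist1, Vcan, Rgs5, Ptn and Pdgfra had their lowest means there.

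Members of DUX-pulsed and control libraries were then compared. Of 10027 genes tested over the 4 sums, 525 passed an adjusted p of 0.05 (5.24%), 287 higher in DUX-pulsed libraries (2.86%) and 238 lower (2.37%). Both DUX-pulsed libraries lay above both control libraries for 25.0% of genes tested and below both for 25.8%. The count was 157 without DUX-pulsed library 2, 802 without control library 1, and 365 with DESeq2. The median mt- share of members was 2.63% and 2.87% in DUX-pulsed libraries, against 4.92% and 5.43% in control libraries. Its part in the calls was not tested.

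Part of this difference lay in whole stretches of chromosomes. Genes of chromosome 13 had a median log2 fold change of 0.83 in members, 0.89 in collagen-gate cells without Upk3b and 0.95 in all other kept cells. On chromosome 4 the bins of 20 Mb from 120000001 to 140000000 and from 140000001 to 160000000 had medians of 0.56 and 0.91 in members. On chromosome 5 the bin from 120000001 to 140000000, which holds Upk3b itself, had a median of -0.54. The bin of chromosome 14 from 100000001 to 120000000 had a median of -0.65, while the last bin of that chromosome, with 11 tested genes and so too few to be called shifted, had 0.88. The last bin of chromosome 16 had a median of -0.54. Of the 287 rises, 133 lay in bins shifted higher, which held 652 of the tested genes, and of the 238 falls, 23 lay in bins shifted lower, which held 249. Bins not called shifted held 9042 of the tested genes, with 151 of the rises and 210 of the falls. Without all shifted bins and chromosome Y, p-values were adjusted anew over the other 9123 genes. That left 273 calls, 105 higher and 168 lower, so the share of rises among calls was 38.5% in place of 54.7%. The bins were chosen by their medians in this same comparison. Those shifted higher held more genes and calls than those shifted lower, so a smaller share of rises was built into the choice. The Y-linked gene Ddx3y had 10.7 and 28.4 CPM in members of DUX-pulsed libraries and 0 CPM in both control libraries, with the same pattern in cells without Upk3b. Stem cell lines or clones that differ in chromosome content, and the DUX pulse, cannot be told apart in this design.

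**Figure D4:**
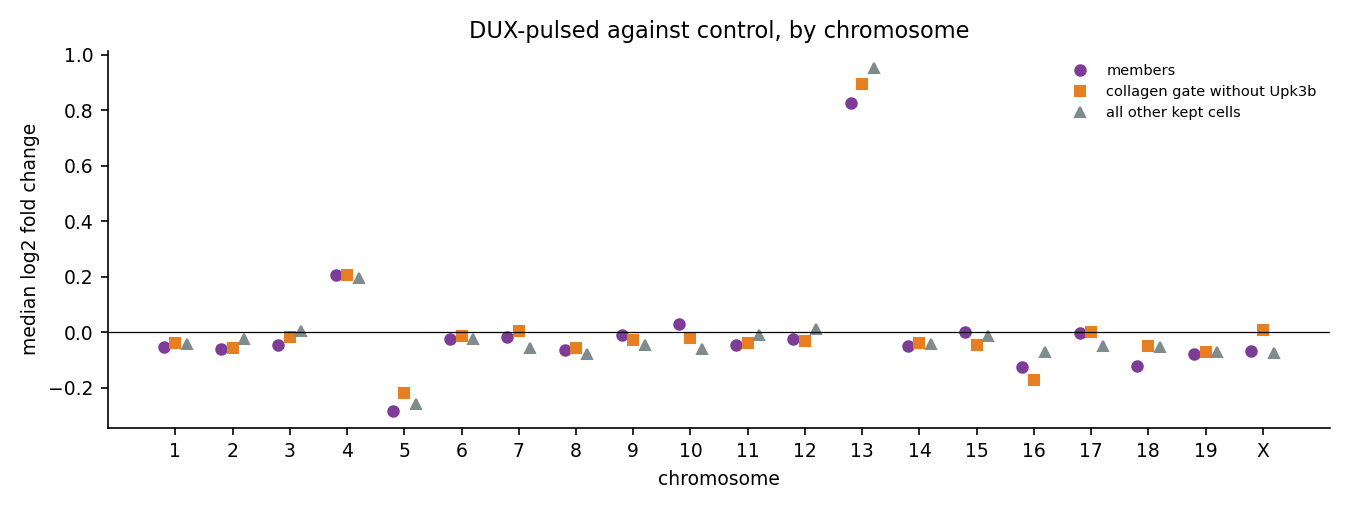
Median log2 fold change of DUX-pulsed against control libraries over the tested genes of each chromosome, in members, in collagen-gate cells without Upk3b and in all other kept cells. Chromosome 13 stood near 0.83 to 0.95 in all 3 sets of cells, chromosome 4 near 0.2 and chromosome 5 below 0.

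The mesothelial genes of members mostly did not pass between the groups. Upk1b had 161 and 172 CPM in DUX-pulsed libraries, against 152 and 119 CPM in control libraries (log2 fold change 0.30, SE 0.22, adjusted p = 0.486). Bnc1 had 65.9 and 79.3 CPM in DUX-pulsed libraries, against 86.0 and 76.0 CPM in control libraries (-0.16, adjusted p = 0.76), and Wt1 had 32.2 and 28.3 CPM, against 34.8 and 27.6 CPM (-0.04, adjusted p = 0.955). Lrrn4 was the exception, with 45.5 and 28.6 CPM in DUX-pulsed libraries, against 132 and 157 CPM in control libraries (-1.97, SE 0.27, adjusted p = 0.00397). It fell in cells without Upk3b (-3.05) and in the other kept cells (-1.89) of the same libraries too. Of 13 list genes tested it was the only call, while 5.24% of all genes tested passed. Leaving out 1 library gave 0 to 4 higher and 1 to 2 lower, with the 4 higher and 2 lower without control library 1. Upk3b itself, with 284 and 389 CPM in DUX-pulsed libraries, against 459 and 235 CPM in control libraries, is given as a description. The gate genes Col1a1, Col3a1 and Postn, also a description, averaged more in DUX-pulsed members, with 1121 and 1615 CPM of Postn against 269 and 361 CPM in control libraries.

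Of 11 tested contractile genes of smooth muscle, 6 rose in DUX-pulsed members (Acta2, Tagln, Actg2, Tpm2, Cald1 and Lmod1) and 0 fell. Of all genes tested in this comparison, 2.86% rose and 2.37% fell. The median log2 fold change of the contractile genes was 1.28, against -0.02 over all genes tested. Acta2, the gene of smooth muscle actin, had 2057 and 1907 CPM in DUX-pulsed libraries, against 869.6 and 662.5 CPM in control libraries (log2 fold change 1.37, SE 0.18, adjusted p = 0.00311). Tagln, the gene of transgelin, had 1166 and 896 CPM in DUX-pulsed libraries, against 579.8 and 269.9 CPM in control libraries (1.28, adjusted p = 0.0377). In cells without Upk3b of the same libraries the log2 fold changes were -0.04 for Acta2 and -0.40 for Tagln, and the difference between the classes passed for neither in the interaction test, which called 6 genes higher (0.0516%) and 12 lower (0.103%) of 11628 (0.155% in all). The 6 rises became 2 without DUX-pulsed library 2, 4 without DUX-pulsed library 1 or control library 2, and 8 without control library 1.

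Secreted and matrix genes moved both ways. As a background for their counts, 2.86% of all genes tested rose in DUX-pulsed members and 2.37% fell. Igfbp2, which encodes a carrier of insulin-like growth factors, had 693 and 608 CPM in DUX-pulsed libraries, against 155 and 149 CPM in control libraries (log2 fold change 2.10, SE 0.20, adjusted p = 0.00125). In cells without Upk3b its log2 fold change was 0.46 (adjusted p = 0.28). Lum had 379 and 659 CPM in DUX-pulsed libraries, against 197 and 49.3 CPM in control libraries (2.09, adjusted p = 0.0363, and 0.16 without DUX-pulsed library 2). The elastic fibre gene Mfap4 had 209.6 and 239 CPM in DUX-pulsed libraries, against 92.2 and 88.6 CPM in control libraries (1.31, adjusted p = 0.00965). Bgn, the gene of biglycan, fell to 9.79 and 24.2 CPM in DUX-pulsed libraries, against 156 and 153 CPM in control libraries (-3.17, SE 0.35, adjusted p = 0.0018). Over the list of interstitial matrix 6 of 24 tested genes rose and 2 fell, and without DUX-pulsed library 2 it was 1 and 2.

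Other rises stood outside the shifted bins. Here too 2.86% of all genes tested rose and 2.37% fell. Mbnl3, an X-linked splicing regulator, had 191 and 163 CPM in DUX-pulsed libraries, against 31.8 and 17.5 CPM in control libraries (log2 fold change 2.87, SE 0.29, adjusted p = 0.00125). Nkd1, a feedback inhibitor of WNT signalling, had 71.7 and 69.6 CPM in DUX-pulsed libraries, against 18.4 and 12.5 CPM in control libraries (2.21, adjusted p = 0.00312). Kdelr3, a receptor that returns proteins to the endoplasmic reticulum, had 199 and 259.6 CPM in DUX-pulsed libraries, against 63.5 and 60.2 CPM in control libraries (1.89, adjusted p = 0.00272). All 3 also rose in cells without Upk3b, by 2.17, 1.43 and 1.23. The rises of Stmn1, Tinagl1, Pdpn and Col9a2 (chromosome 4) and of Gas1 and Cenph (chromosome 13) came from bins shifted higher. Stmn1, which encodes a microtubule regulator, had 658 and 512 CPM in DUX-pulsed libraries, against 145 and 119 CPM in control libraries, a log2 fold change of 2.14, well above the median of its bin. Col9a2 and Pdpn were lost without DUX-pulsed library 2 (adjusted p = 0.15 and 0.058). Of 20 genes of glycolysis and hypoxia 5 rose and 0 fell, among them Eno1 (1.5, adjusted p = 0.00194), which lies in a shifted bin, and P4ha2 (1.09, adjusted p = 0.0123, and 0.077 without DUX-pulsed library 2). Without DUX-pulsed library 2 there was 1 rise on that list, and without control library 2 there were 10.

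Of 19 tested receptors of mesenchyme, 0 rose in DUX-pulsed members, 5 fell (Pdgfrb, Tgfbr1, Itga1, Itga8 and Eng) and 14 did not pass. Of 24 growth factors and ligands, 1 rose (Ptn) and 4 fell (Wnt5a, Tgfb2, Hgf and Nrg1). Over all genes tested 2.86% rose and 2.37% fell. Eng, the gene of endoglin, a co-receptor for TGF-beta and BMP ligands, had 5.76 and 5.46 CPM in DUX-pulsed libraries, against 42.0 and 45.1 CPM in control libraries (log2 fold change -2.95, SE 0.30, adjusted p = 0.00125). The ligand gene Tgfb2 had 98.2 and 84.2 CPM in DUX-pulsed libraries, against 239 and 308 CPM in control libraries (-1.59, adjusted p = 0.00467). Gata4, a factor of heart and lateral plate mesoderm, had 10.1 and 16.6 CPM in DUX-pulsed libraries, against 47.1 and 62.7 CPM in control libraries (-2.04, adjusted p = 0.00808). Robo2, a receptor of SLIT ligands, had 6.91 and 17.4 CPM in DUX-pulsed libraries, against 53.3 and 84.4 CPM in control libraries (-2.49, adjusted p = 0.00925). For each of the 4 genes both DUX-pulsed libraries lay below both control libraries. The number of receptor falls was 2 without DUX-pulsed library 2 and 6 without control library 1.

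The interferon-stimulated genes Isg15 and Bst2 were among the largest falls. Isg15, a ubiquitin-like protein, had 3.74 and 2.34 CPM in DUX-pulsed libraries, against 69.7 and 76.0 CPM in control libraries (log2 fold change -4.57, SE 0.33, adjusted p = 0.000408), although its bin on chromosome 4 was shifted higher. Bst2, which encodes the antiviral protein tetherin, had 14.4 and 20.5 CPM in DUX-pulsed libraries, against 108 and 112 CPM in control libraries (-2.64, SE 0.26, adjusted p = 0.00125). In cells without Upk3b they fell by 3.71 and 2.05 on the log2 scale, and in the other kept cells Isg15 had a log2 fold change of 0.53 (adjusted p = 0.33).

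The remaining large falls included genes of visceral and gut endoderm, high in control library 2. Ttr, the gene of transthyretin, had 16.7 and 14.3 CPM in DUX-pulsed libraries, against 43.0 and 1266 CPM in control libraries, and Apoa1, the gene of apolipoprotein A1, had 2.88 and 1.30 CPM, against 5.12 and 229 CPM. Both passed (log2 fold changes -5.40 and -5.82, adjusted p = 0.0209 and 0.0204), as did Apom, Spink1, Apoc1, Ctsh, Rbp4 and Emb. Summed over 15 endoderm markers, members had 52.8 and 37.0 CPM in DUX-pulsed libraries, against 135 and 5023 CPM in control libraries, on plain library totals, and none of the 15 was at 0 in all members. Control library 2 held the 2 members that pass the endoderm gate and the 1 that passes the epithelial gate. Without those cells the sum in control library 2 was 201 CPM, Ttr was at 62.4 CPM and Apoa1 at 10.6 CPM there. Spink1, Ttr, Apoc1 and Rbp4 still passed without them (log2 fold changes -2.86, -1.72, -2.75 and -0.91), Ctsh and Emb did not (adjusted p = 0.0911 and 0.452), and Apom and Apoa1 no longer had the counts to be tested. With all cells, the 8 genes missed the threshold without DUX-pulsed library 2 (adjusted p from 0.064 to 0.14), and without control library 2 Ctsh (0.24), Rbp4 (0.12) and Emb (0.82) did too. The falls of Bgn, Isg15, Bst2 and Robo2 did not rest on those cells: without them control library 2 had 191, 96.3, 134 and 103 CPM of the 4 genes.

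**Figure D5:**
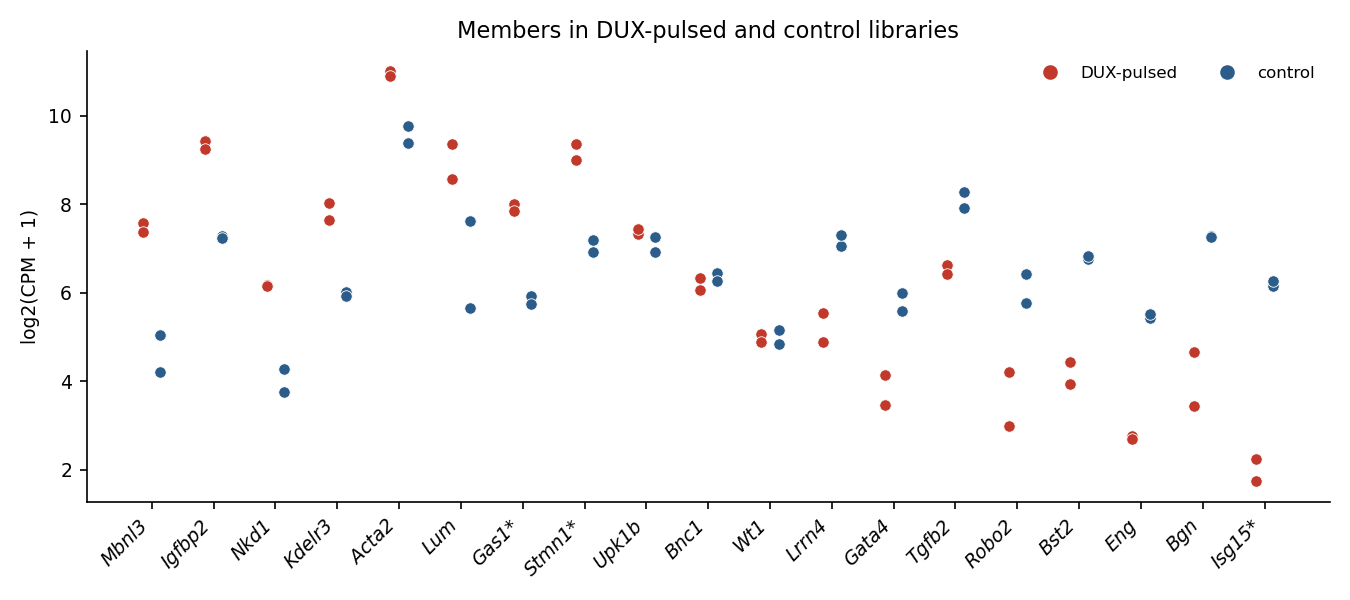
Levels, as log2(CPM + 1), of 19 genes in members of the 2 DUX-pulsed and 2 control libraries (points). Asterisks mark genes in chromosome bins whose median was shifted. Mbnl3, Igfbp2 and Acta2 were higher in both DUX-pulsed libraries, Upk1b, Bnc1 and Wt1 lay close together or overlapped, and Lrrn4, Eng, Bgn and Isg15 were lower in both DUX-pulsed libraries.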

How the data were processed

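UMI counts per gene and cell were deposited by the authors as 1 table of 20284 genes and 10090 cells over 4 libraries, with Cell Ranger 2.2.0, STAR and the build mm10 named in the submitters' processing notes. The members and gene lists were chosen with earlier results of these data known. Counts were summed per library and class, limited to genes reaching 10 counts in 2 or more sums and 40 in all, scaled by TMM and tested with edgeR 4.0.16 (quasi-likelihood, Benjamini-Hochberg adjusted p under 0.05, R 4.3.3). The tests were also run on simulated counts with a fixed spread and no library effects, which cannot show how real library differences affect the calls. DESeq2 1.42.0, other filters and scalings, stricter cells, thinning to 5000 UMIs per cell (seed 1) and leaving out each library were alternatives. Thinning left out 2 members and 5 cells without Upk3b for depth. The comparison with cells without Upk3b used its own TMM factors, so its CPM differ slightly from those of the DUX comparison. The summed levels of parietal endoderm, endothelial and cardiomyocyte markers use TMM-scaled totals. The summed levels of endoderm markers, and levels given without endoderm- or epithelial-gate cells, use plain library totals. Named genes were the 12 largest rises and 12 largest falls among calls whose higher group averaged 50 CPM or more and whose libraries all went the same way, the 10 interaction genes of smallest p, the rule and marker genes, 3 genes per list by smallest p, and tested mesothelial genes, leaving out mt-, ribosomal and predicted genes. Other genes were chosen after their values were seen. Gene positions came from GENCODE by symbol (19987 symbols matched 1 position, 297 did not), and bins of 20 Mb with at least 15 genes and a median log2 fold change of at least 0.5 either way were called shifted. Promoter windows came from RefSeq (GRCm38.p6). Some genes that the rule named are not reported here. No doublet caller was run. Intervals cover counting error only.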

Additional observations from a re-analysis of the deposited data

Results flagged for a closer look

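The difference between DUX-pulsed and control libraries was tested for a difference between members and collagen-gate cells without Upk3b, by an interaction term in edgeR. It passed for 18 of 11628 genes (0.155%, 6 higher and 12 lower), against 1351 at an unadjusted p under 0.05 and 26 calls by DESeq2. The values below are differences of 2 log2 fold changes, members minus cells without Upk3b, for the 10 genes of smallest p with at least 50 CPM.

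Among heart muscle genes, Myl7 had 10.6 and 24.2 CPM in members of DUX-pulsed libraries, against 61.3 and 89.0 CPM in members of control libraries. Cells without Upk3b had 69.8 and 198 CPM in DUX-pulsed libraries, against 54.2 and 36.0 CPM in control libraries (difference -3.63, adjusted p = 0.0114). Myl4 differed by -3.45 (adjusted p = 0.033). With all 4 collagen-gate genes required, the difference was -0.0662 for Myl7 (adjusted p = 0.994) and 3.35 for Myl4 (adjusted p = 0.242), and the log2 fold change in members was 0.66 for Myl7 and 2.27 for Myl4. With cells in any other gate removed the differences were -1.02 and -1.26 (adjusted p = 0.333 and 0.612). Cardiomyocyte markers summed to 166 and 275 CPM in members of DUX-pulsed libraries, against 229 and 427 CPM in control libraries, and to 406 and 998 CPM in cells without Upk3b of DUX-pulsed libraries, against 183 and 402 CPM in control libraries. 

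Among secreted and surface proteins, Igfbp2 differed by 1.68 and Bgn by -1.78 (adjusted p = 0.0174 for both). Tgfb2 had 101 and 85.3 CPM in members of DUX-pulsed libraries, against 238 and 304 CPM in control libraries, while cells without Upk3b had 189.7 and 208 CPM, against 217 and 257 CPM (-1.29, adjusted p = 0.0361). Vcam1, an adhesion receptor, had 2.65 and 8.42 CPM in members of DUX-pulsed libraries, against 26.6 and 26.4 CPM in control libraries, and 48.4 and 76.4 CPM in cells without Upk3b, against 35.6 and 45.1 CPM (-2.90, adjusted p = 0.033). Lrrn3 differed by -3.23 (adjusted p = 0.0192) and the transcription factor gene Mecom by -2.45 (adjusted p = 0.0361).

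The replication genes Hist1h2ap and Rrm2 differed by 1.38 and 1.89 (adjusted p = 0.0174 and 0.0361). Hist1h2ap lies on chromosome 13, whose median was shifted in both classes.

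With all 4 collagen-gate genes required, of these genes Hist1h2ap alone still passed, and the others had adjusted p from 0.0503 to 0.994.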

How the results depend on the processing

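Of 525 genes called between members of DUX-pulsed and control libraries, the count became 213 with all 4 collagen-gate genes required, 279 with at least 1000 genes and at most 5% mt per cell, 168 after thinning, 1312 with no filter on low counts and 273 without shifted bins and chromosome Y (chosen after seeing the data). Leaving out 1 library gave 157 to 802. For members against cells without Upk3b, with 1116 genes called, the count became 546 after thinning, 416 of them among the 1116. It was 1800 with no filter and 128 with no library block, and 388 to 1887 without 1 library. Of 18 interaction calls, the count became 2 with at least 2 Upk3b UMIs, 34 with all 4 genes, 7 with the stricter cells, 44 after thinning, 77 without endoderm- or epithelial-gate cells (chosen after seeing the data) and 414 with no filter, and 32 to 220 without 1 library. The log2 fold change of the share of members was 0.96 with TMM on classes and 2.13 to 2.68 without 1 library. The difference in the fraction of collagen-gate cells with Upk3b ran from -6.16 to 9.25 percentage points without 1 library. The cause was not tested.

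With all 4 genes required, the log2 fold change between DUX-pulsed and control members reversed for Myl7 (0.66) and Myl4 (2.27), the interaction of Myl4 reversed (3.35), and Actc1 against cells without Upk3b was 0.0523. With the stricter cells Emb stood at 0.46. None of these 5 passed.

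Same-numbered libraries correlated at r = 0.18 over 10032 genes in 2 pairs, so the numbers were not taken as a pairing. With the replicate block the DUX comparison had 1046 calls, and the share of members had a log2 fold change of 2.41 (adjusted p = 0.000871). The control libraries hold 30 and 32 members, which limits every comparison with them.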

Other observations

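Of 14 tested genes of epithelial adhesion and keratins, 4 were higher than in cells without Upk3b (Krt7, Krt8, Krt18 and Krt19) and 3 lower, among them Cdh1 and Epcam. In the same comparison 5.62% of all genes tested were higher in members and 3.98% lower. With endoderm- or epithelial-gate cells removed (chosen after seeing the data), 5 of 12 tested genes were higher and 1 lower, and the median log2 fold change was 0.46 in place of -0.13. There were 0, 1 and 1 falls without DUX-pulsed library 1, DUX-pulsed library 2 and control library 1, and 6 rises and 7 falls without control library 2. The call of Epcam was lost with those gate cells removed (log2 fold change -0.47, adjusted p = 0.489, against -2.05 and 0.0339 with all cells). The E-cadherin gene Cdh1 had 0.885, 0, 0 and 0.824 CPM in members of DUX-pulsed libraries 1 and 2 and control libraries 1 and 2, against 7.53, 2.69, 1.07 and 6.71 CPM in cells without Upk3b (log2 fold change -3.42, edgeR adjusted p = 0.00794). The epithelial gate was passed by 1 of 264 members and 11 of 537 cells without Upk3b. Ptn, the gene of the growth factor pleiotrophin, was lower in members in each library, at 363, 383, 171 and 203 CPM, against 697.5, 812, 368 and 397 CPM in cells without Upk3b (-1.02, adjusted p = 8.97e-05).

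Imprinted genes and Hox genes moved both ways. Over all genes tested against cells without Upk3b, 5.62% were higher in members and 3.98% lower. Of 26 tested imprinted genes 4 were higher in members (Plagl1, Dlk1, Ndn and Dcn) and 4 lower (Cdkn1c, Phlda2, Grb10 and Asb4), with 2 or fewer falls without DUX-pulsed library 1 or 2 or control library 1. Dlk1, which encodes a non-canonical NOTCH ligand, had 218, 177, 141 and 166 CPM in members, against 61.0, 89.6, 84.1 and 94.0 CPM in cells without Upk3b (1.12, adjusted p = 0.00296). Of 17 tested Hox genes 2 were higher (Hoxb2 and Hoxc8) and 3 lower (Hoxa13, Hoxc9 and Hoxd9). There were 6 falls with endoderm- or epithelial-gate cells removed, and 1 without DUX-pulsed library 2 or control library 1. Hoxb2 had 51.6, 41.1, 47.0 and 56.9 CPM in members, against 23.2, 14.8, 18.9 and 34.8 CPM in cells without Upk3b (1.17, adjusted p = 0.00172), and Hoxa13, the most posterior of the 5, had 2.36, 1.84, 1.02 and 4.95 CPM, against 13.1, 7.87, 20.7 and 11 CPM (-2.28, adjusted p = 0.00403).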
